A study of Arabidopsis thaliana with 12 samples.

Results

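Aliphatic glucosinolate synthesis was described here through 10 Arabidopsis thaliana genes, taken by locus from a table of 33602 loci. They were the regulators MYB28 (AT5G61420) and MYB29 (AT5G07690), the side-chain elongation genes BCAT4 (AT3G19710), BAT5 (AT4G12030), MAM1 (AT5G23010) and MAM3 (AT5G23020), and the core synthesis genes CYP79F1 (AT1G16410), CYP79F2 (AT1G16400), CYP83A1 (AT4G13770) and SOT18 (AT1G74090). All 10 were in the table and all 10 passed the filter on low counts, which kept 18967 genes for testing. The genes were chosen by their known roles in the pathway, with earlier results of these data known.

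Glucosinolates are sulfur-rich defence compounds of the cabbage order, stored in the leaf and broken down by myrosinases when tissue is damaged. The aliphatic kind is built from methionine. The amino acid is first lengthened in a cycle of deamination, condensation with acetyl-CoA, isomerisation and oxidation, then converted through an aldoxime into the core structure, and last modified on its side chain. MYB28 and MYB29 are R2R3-MYB transcription factors known to switch on most genes of this route, together with MYC-type partners, and in Arabidopsis leaves methionine-derived glucosinolates are the most abundant kind.

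RNA was sequenced from leaves of plants in the Columbia-0 background that carry cat2-2, a mutation in the main leaf catalase, together with a mutation in a glycolate oxidase gene, either gox1 or gox2. The 4 groups were cat2 gox1 after high light, cat2 gox1 under high CO2, cat2 gox2 after high light and cat2 gox2 under high CO2, with 3 libraries each. All plants were 3 weeks old. The high CO2 groups had grown in air with 3000 ppm CO2 under an irradiance of 120 µmol per square metre and second, which keeps photorespiration low, and the high light groups were moved for 3 h into 400 ppm CO2 under 1200 µmol. Light, CO2 and elapsed time changed together and cannot be told apart, and the term high light covers all of them. Every group carried cat2-2 and a mutation in 1 glycolate oxidase gene, none had the wild-type catalase gene, and each library was a pool of leaves from 15 plants, with the whole set-up carried out anew for each biological repeat. The design compares the lines and their responses to conditions that favour photorespiration.

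The libraries held between 19571516 and 25314811 counts. In the check of the mutated genes, GOX1 had 991 ± 49.9 CPM in cat2 gox2 and 156 ± 31.5 CPM in cat2 gox1 after high light (SD, n = 3 each), and 2062 ± 131 against 261 ± 22.7 CPM under high CO2. CPM are counts relative to the scaled library total, for which 1 count was worth 0.0397 to 0.0526 CPM. GOX2 had 16.5 to 16.8 CPM in cat2 gox2 under high CO2, against 932 to 1199 CPM in cat2 gox1, but 1 cat2 gox2 high light library, replicate 2, had 122 CPM where the other 2 had 6.98 and 7.48, so the members' counts and medians that rest on it are also given without it. CAT2 was between 44.0 and 120 CPM in all libraries, and no library with an intact CAT2 was at hand to compare it with. The 4 leaf mesophyll markers RBCS1A, LHCB1.1, RCA and CA1 were detected in every library and the summed shoot meristem markers stayed at or under 0.259 CPM.

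The member genes lie on chromosomes 1, 3, 4 and 5, and some are neighbours. In the TAIR10.1 assembly CYP79F2 (chromosome 1, 5605044 to 5607498) is followed by CYP79F1 (5608682 to 5612064) after 1183 bases, and MAM1 (chromosome 5, 7703041 to 7706973) by MAM3 (7718118 to 7721866) after 11144 bases, with no other coding gene between them and all 4 on the plus strand. MYB29 (chromosome 5, 2446669 to 2448584) is followed by MYB76, a further regulator of the family, after 1442 bases. SOT18 (chromosome 1, 27862814 to 27864193) is followed after 151 bases by SOT16, a sulfotransferase of the indolic branch. MYB28 spans 24689069 to 24691187 of chromosome 5, BCAT4 6846969 to 6849582 of chromosome 3, and BAT5 7210807 to 7213376 and CYP83A1 7990429 to 7992429 of chromosome 4. Counts were per gene, and exons or untranslated regions were not measured separately.

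CYP79F1 and CYP79F2 are the most alike of the members, which matters because the handling of reads that fit both genes is not given in the sources used here. Their coding sequences were 91.4% identical over 1614 aligned bases, and 2.00% of the 50-base words of CYP79F1 also occurred in CYP79F2. The longest run common to both transcripts was 100 bases, shown here because a read from within it cannot be placed on either gene. The 90-base coding window in which they differ most, shown with the 20 differing bases in capitals, is the kind of stretch that does separate them. It lies on the plus strand at chr1:5609580-5609669 in CYP79F1 and chr1:5605946-5606035 in CYP79F2 (RefSeq, TAIR10.1, 5′ to 3′).
Shared run: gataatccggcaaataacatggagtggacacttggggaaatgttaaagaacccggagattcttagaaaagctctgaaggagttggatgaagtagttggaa
CYP79F1 window: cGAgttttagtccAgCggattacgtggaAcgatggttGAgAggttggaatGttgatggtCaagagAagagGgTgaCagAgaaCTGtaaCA
CYP79F2 window: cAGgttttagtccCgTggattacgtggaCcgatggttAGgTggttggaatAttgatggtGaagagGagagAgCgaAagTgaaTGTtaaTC
Values for these 2 genes are therefore uncertain to the extent that shared reads were dropped or split. MAM1 and MAM3 were 83.8% identical, MYB28 and MYB29 77.4%, and SOT18 and SOT16 80.5%, with no 50-base word in common in any of these pairs.

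The 250 bases before each gene start were searched on both strands for the G-box CACGTG, a site of MYC-type factors, and for AC elements, sites known for R2R3-MYB factors: AC element I (ACCTACC), II (ACCAACC) and III (ACCTAAC). CYP83A1 held a G-box 43 bases before the gene start, in company with 6.49% of 27443 promoters, and an AC element I at 71 bases. CYP79F2 held an AC element I at 104 bases, a motif found in 1.16% of promoters, and BAT5 an AC element II at 20 bases, found in 2.69%. AC element III, present in 2.46% of promoters, was in no member. Some AC element was thus in 3 of 10 members and in 6.12% of all promoters. BAT5, CYP79F2 and CYP83A1 were lower after high light in both lines. MYB28, MYB29, CYP79F1 and SOT18 were too, and their windows held none of the 4 motifs. The 3 windows with an AC element are shown, with each motif in capitals as it reads on the strand of the gene. They are CYP83A1 at chr4:7992430-7992679 (minus strand), BAT5 at chr4:7210557-7210806 and CYP79F2 at chr1:5604794-5605043 (both plus strand; RefSeq, TAIR10.1).
CYP83A1 promoter: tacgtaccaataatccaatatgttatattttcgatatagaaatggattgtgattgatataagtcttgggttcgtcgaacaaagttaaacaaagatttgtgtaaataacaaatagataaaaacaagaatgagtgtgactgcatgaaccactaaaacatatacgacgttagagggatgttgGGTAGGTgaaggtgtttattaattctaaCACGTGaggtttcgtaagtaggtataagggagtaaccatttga
BAT5 promoter: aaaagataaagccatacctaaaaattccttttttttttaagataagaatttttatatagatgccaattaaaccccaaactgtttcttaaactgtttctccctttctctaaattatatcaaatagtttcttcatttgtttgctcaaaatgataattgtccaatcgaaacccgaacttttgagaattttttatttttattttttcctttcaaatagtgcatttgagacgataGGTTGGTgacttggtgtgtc
CYP79F2 promoter: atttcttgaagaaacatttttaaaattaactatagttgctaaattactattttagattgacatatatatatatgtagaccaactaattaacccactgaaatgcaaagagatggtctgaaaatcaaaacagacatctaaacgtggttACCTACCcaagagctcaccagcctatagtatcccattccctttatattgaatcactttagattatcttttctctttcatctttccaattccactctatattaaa
A match in these windows describes the sequence only, and the remaining 7 windows held none of the 4 motifs.

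After high light the aliphatic glucosinolate genes were lower in both lines, from the regulators to the last sulfation step. In cat2 gox1, 7 of 10 fell and none rose (adjusted p under 0.05, edgeR's quasi-likelihood test with Benjamini-Hochberg adjustment over all genes), and the other 3, BCAT4, MAM1 and MAM3, had lower means but did not pass. In cat2 gox2 all 10 fell. Of all 18967 genes, 26.5% were called lower in cat2 gox1 and 29.2% in cat2 gox2. The median log2 fold change of the 10 genes was -1.18 in cat2 gox1 and -1.62 in cat2 gox2, while that of all genes tested was -0.06 and -0.09. Since both lines changed more than 50% of all tested genes (52.1% and 56.9% in either direction), the counts are read against that background. The high light and high CO2 values did not overlap for 7 of the 10 genes in cat2 gox1, beside 29.8% of all genes lower without overlap, and for all 10 in cat2 gox2, beside 32.4%.

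**Figure D1:**
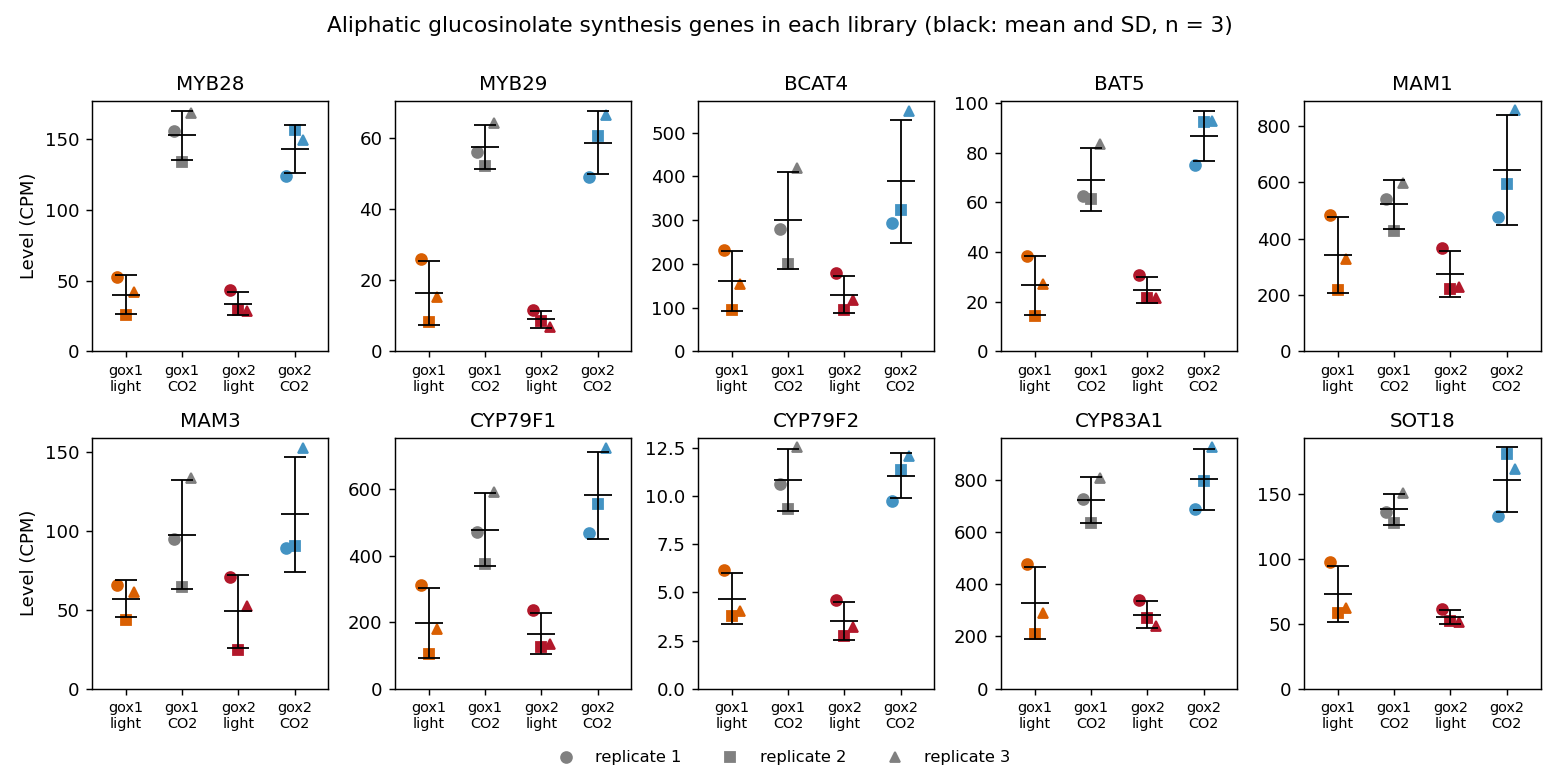
Level of each of the 10 genes in CPM (vertical axes, each from 0) in the 12 libraries, with high light left of high CO2 for each line. Coloured points are single libraries with a marker for the replicate number, and black bars give the mean and SD of 3 libraries. In cat2 gox2 every high light point lies below every high CO2 point, while in cat2 gox1 BCAT4, MAM1 and MAM3 overlap.

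Leaf samples hold several cell types, and fewer cells of a type and less RNA per cell cannot be told apart. The summed level of the 4 mesophyll markers moved in the same direction, at 14289 to 24532 CPM in cat2 gox1 after high light against 34807 to 55563 CPM under high CO2, and at 19498 to 26930 against 38326 to 63606 CPM in cat2 gox2. All 4 mesophyll markers fell in both lines, and their part in the glucosinolate values was not tested. The 6 phloem markers summed to 798 to 828 CPM after high light against 708 to 950 CPM under high CO2 in cat2 gox1, and to 725 to 1060 against 854 to 1050 CPM in cat2 gox2, so these ranges overlapped. Single phloem markers went both ways, with SUC2 and SEOR1 lower and SWEET12 higher in cat2 gox1 and SWEET12 higher in cat2 gox2. Of 3 guard cell markers, MYB60 and FAMA fell and KAT1 rose in both lines, and their summed level was 48.8 to 52.9 CPM after high light against 47.1 to 50.6 CPM under high CO2 in cat2 gox1 and 45.1 to 60.4 against 42.4 to 53.3 CPM in cat2 gox2. Their part in the glucosinolate values was not tested either.

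Both MYB regulators fell, and in each line their log2 changes were the furthest from 0 among the 10 genes, although differences between genes were not tested. MYB28, which acts on short- and long-chain aliphatic glucosinolates, had 52.7, 25.7 and 41.7 CPM in cat2 gox1 after high light (replicates 1, 2 and 3) and 156, 134 and 168 CPM under high CO2. In cat2 gox2 it had 43.1, 29.2 and 28.5 CPM after high light and 124, 156 and 149 CPM under high CO2. Every high light library was thus well below every high CO2 library in both lines. The log2 fold change was -1.93 (approximate SE 0.251, edgeR adjusted p = 9.09e-05) in cat2 gox1 and -2.09 (SE 0.253, edgeR adjusted p = 3.88e-05) in cat2 gox2, which leaves 26.2% and 23.5% of the high CO2 level.

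MYB29, an accessory regulator linked in Arabidopsis to jasmonate-induced glucosinolate synthesis, had 25.9, 8.11 and 15.2 CPM in cat2 gox1 after high light and 56.1, 52.2 and 64.2 CPM under high CO2. In cat2 gox2 it had 11.6, 8.52 and 6.69 CPM after high light and 49.1, 60.4 and 66.4 CPM under high CO2. No high light library reached a high CO2 library, and the cat2 gox1 high light libraries were the most spread. The fall was -1.81 (SE 0.339, edgeR adjusted p = 0.00109) in cat2 gox1 and -2.72 (SE 0.354, edgeR adjusted p = 6.75e-05) in cat2 gox2, the largest of any member in that line.

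Among the elongation genes, the transporter BAT5 fell in both lines and the enzymes passed in cat2 gox2 but not in cat2 gox1. The difference between the lines' responses passed for none of these genes. With the repeat fitted as a block, BCAT4 (-0.92, edgeR adjusted p = 0.0197) and MAM3 (-0.74, edgeR adjusted p = 0.0261) passed in cat2 gox1 too. BCAT4, the methionine aminotransferase that opens the cycle in the cytosol, had 232, 94.3 and 154 CPM in cat2 gox1 after high light and 279, 200 and 419 CPM under high CO2. In cat2 gox2 it had 178, 94.0 and 117 CPM after high light and 294, 323 and 550 CPM under high CO2. High light replicate 1 of cat2 gox1 lay inside the range of its high CO2 libraries, and there was no such overlap in cat2 gox2. The log2 fold change was -0.90 (SE 0.387, 95% interval -1.75 to -0.05, edgeR adjusted p = 0.0704) in cat2 gox1 and -1.58 (SE 0.393, edgeR adjusted p = 0.00512) in cat2 gox2.

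BAT5 carries the oxo acids of the cycle across the chloroplast envelope. It had 38.2, 14.3 and 27.3 CPM in cat2 gox1 after high light and 62.4, 61.1 and 83.6 CPM under high CO2. The cat2 gox2 libraries had 30.6, 21.3 and 21.6 CPM after high light and 75.0, 92.4 and 92.7 CPM under high CO2. The groups did not overlap in either line. Its level fell by 1.38 on the log2 scale (SE 0.295, edgeR adjusted p = 0.00253) in cat2 gox1 and by 1.82 (SE 0.299, edgeR adjusted p = 0.000356) in cat2 gox2.

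MAM1, the methylthioalkylmalate synthase of the short-chain products, had 483, 217 and 326 CPM in cat2 gox1 after high light and 541, 428 and 599 CPM under high CO2. Its cat2 gox2 libraries had 368, 223 and 229 CPM after high light and 475, 595 and 857 CPM under high CO2. In cat2 gox1 the replicate 1 high light library lay above the lowest high CO2 library, and the log2 fold change of -0.61 (SE 0.314, 95% interval -1.30 to 0.08) did not pass (edgeR adjusted p = 0.123). In cat2 gox2 the gene fell by 1.23 (SE 0.318, edgeR adjusted p = 0.00637).

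MAM3, whose enzyme accepts all chain lengths and is needed for the long-chain products, had 65.8, 43.7 and 61.4 CPM in cat2 gox1 after high light and 94.7, 64.5 and 134 CPM under high CO2, with 1 high light library inside the high CO2 range. Its cat2 gox2 values were 70.6, 24.4 and 52.1 CPM after high light and 89.1, 90.2 and 153 CPM under high CO2. The log2 fold change was -0.78 (SE 0.379, 95% interval -1.61 to 0.05, edgeR adjusted p = 0.105) in cat2 gox1, which did not pass, and -1.17 (SE 0.382, edgeR adjusted p = 0.0213) in cat2 gox2. The cat2 gox2 call ended without high CO2 replicate 3 (-0.87, edgeR adjusted p = 0.0798), without high light replicate 2 (-0.85, edgeR adjusted p = 0.0589) and, at -1.22, without high light replicate 3 (edgeR adjusted p = 0.050006).

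All 4 core genes fell in both lines. CYP79F1, the P450 enzyme that turns all chain-elongated methionines into aldoximes, had 313, 104 and 179 CPM in cat2 gox1 after high light and 472, 374 and 591 CPM under high CO2. In cat2 gox2 it had 236, 125 and 133 CPM after high light and 467, 555 and 724 CPM under high CO2. The groups did not overlap in either line, and replicate 1 was the highest of the high light libraries in both. The log2 fold change was -1.27 (SE 0.378, edgeR adjusted p = 0.0152) in cat2 gox1 and -1.82 (SE 0.383, edgeR adjusted p = 0.00187) in cat2 gox2. The cat2 gox1 call ended without high light replicate 3 of that line (-1.20, edgeR adjusted p = 0.0520).

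CYP79F2, its neighbour, which acts on long-chain methionines, was the rarest member, with 3.78 to 6.19 CPM in cat2 gox1 after high light against 9.33 to 12.5 CPM under high CO2, and 2.73 to 4.61 CPM in cat2 gox2 after high light against 9.78 to 12.1 CPM under high CO2. Mean counts per library were 107 after high light and 241 under high CO2 in cat2 gox1, and for cat2 gox2 75.3 after high light and 221 under high CO2. The gene fell by 1.21 (SE 0.229, edgeR adjusted p = 0.00114) in cat2 gox1 and by 1.66 (SE 0.235, edgeR adjusted p = 0.000126) in cat2 gox2 on the log2 scale.

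CYP83A1, the P450 enzyme that oxidises the aliphatic aldoximes, had 478, 209 and 291 CPM in cat2 gox1 after high light and 725, 635 and 808 CPM under high CO2. In cat2 gox2 it had 339, 272 and 239 CPM after high light and 689, 794 and 924 CPM under high CO2. The groups did not overlap in either line, and replicate 1 was the highest of the high light libraries in both. Its log2 fold change was -1.15 (SE 0.267, edgeR adjusted p = 0.00405) in cat2 gox1 and -1.50 (SE 0.269, edgeR adjusted p = 0.000645) in cat2 gox2.

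SOT18, the sulfotransferase of the last core step for aliphatic products, had 97.6, 58.7 and 62.0 CPM in cat2 gox1 after high light and 136, 128 and 151 CPM under high CO2. Its cat2 gox2 libraries had 61.4, 52.3 and 51.4 CPM after high light and 133, 181 and 170 CPM under high CO2. The groups stood apart in both lines, and the cat2 gox2 high light values were close to each other (55.0 ± 5.53 CPM, SD, n = 3). Its log2 fold change was -0.93 (SE 0.195, edgeR adjusted p = 0.00228) in cat2 gox1 and -1.55 (SE 0.198, edgeR adjusted p = 5.89e-05) in cat2 gox2.

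**Figure D2:**
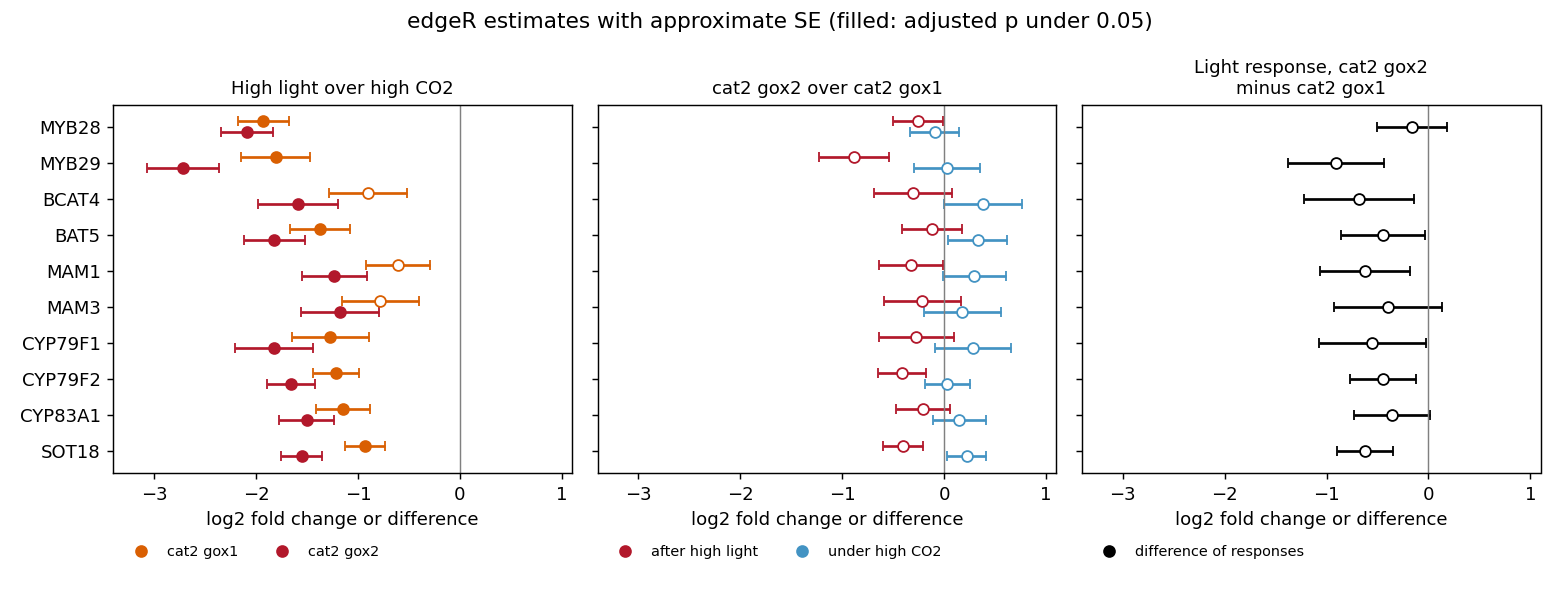
Log2 differences of the 10 genes (horizontal axes) from edgeR with approximate SE bars, filled where the adjusted p was under 0.05. The left panel gives high light over high CO2 in each line, the middle panel cat2 gox2 over cat2 gox1 in each condition and the right panel the difference between the light responses, and filled points occur only in the left panel.

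Set side by side by number, high light libraries were lower than high CO2 libraries for all 10 genes in all 3 numbers of both lines. The numbers were not taken as pairing libraries across conditions, so these differences are a description. The median log2 difference of the 10 genes was -0.60 in number 1, -1.45 in number 2 and -1.55 in number 3 of cat2 gox1, and -1.05, -1.97 and -2.03 in those numbers of cat2 gox2. Number 1 thus had the smallest median difference in both lines. Without the number 3 libraries, in which all 10 genes lay above the group mean under high CO2, 6 genes passed in cat2 gox1 (median -0.91) and 8 in cat2 gox2 (median -1.39). CYP79F1 was then lost in cat2 gox1 (-0.94, edgeR adjusted p = 0.114), and MAM1 (-0.77, edgeR adjusted p = 0.101) and MAM3 (-0.83, edgeR adjusted p = 0.118) in cat2 gox2. Without high light replicate 2 of cat2 gox2, the library with the higher GOX2 level, 9 genes passed in cat2 gox2 and the median was -1.51. In cat2 gox1 the call of BCAT4 appeared without high light replicate 1 (-1.27, edgeR adjusted p = 0.0286) or high CO2 replicate 2 (-1.12, edgeR adjusted p = 0.0448), and that of MAM1 without high light replicate 1 (-0.94, edgeR adjusted p = 0.0326).

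Within a group the 10 genes mostly lay on the same side of the mean in a library, as in 9 of the 12 libraries at least 9 of them did. On the scale of log2 CPM minus the group mean, all 10 lay above the mean in cat2 gox1 high light replicate 1 (median 0.60) and all 10 below it in replicate 2 (median -0.58). In cat2 gox2 after high light all 10 lay above in replicate 1 (median 0.41), all 10 below in replicate 2 (median -0.22) and 9 below in replicate 3 (median -0.19). Under high CO2 all 10 lay above the mean in replicate 3 of both lines (medians 0.21 in cat2 gox1 and 0.20 in cat2 gox2), all 10 below in replicate 2 of cat2 gox1 (median -0.19) and all 10 below in replicate 1 of cat2 gox2 (median -0.26). The other 3 libraries were mixed, with 6 above and 4 below in cat2 gox1 high light replicate 3 and 5 on each side in cat2 gox1 high CO2 replicate 1 and cat2 gox2 high CO2 replicate 2. The median deviation of all genes was within 0.02 of 0 in every library. Over the 12 libraries, the 45 pairs of member genes had a median Pearson r of 0.87 between their deviations, from 0.48 for MAM3 with SOT18 to 0.98 for MYB29 with CYP83A1. This is a description, since the pairs share libraries and depth.

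**Figure D3:**
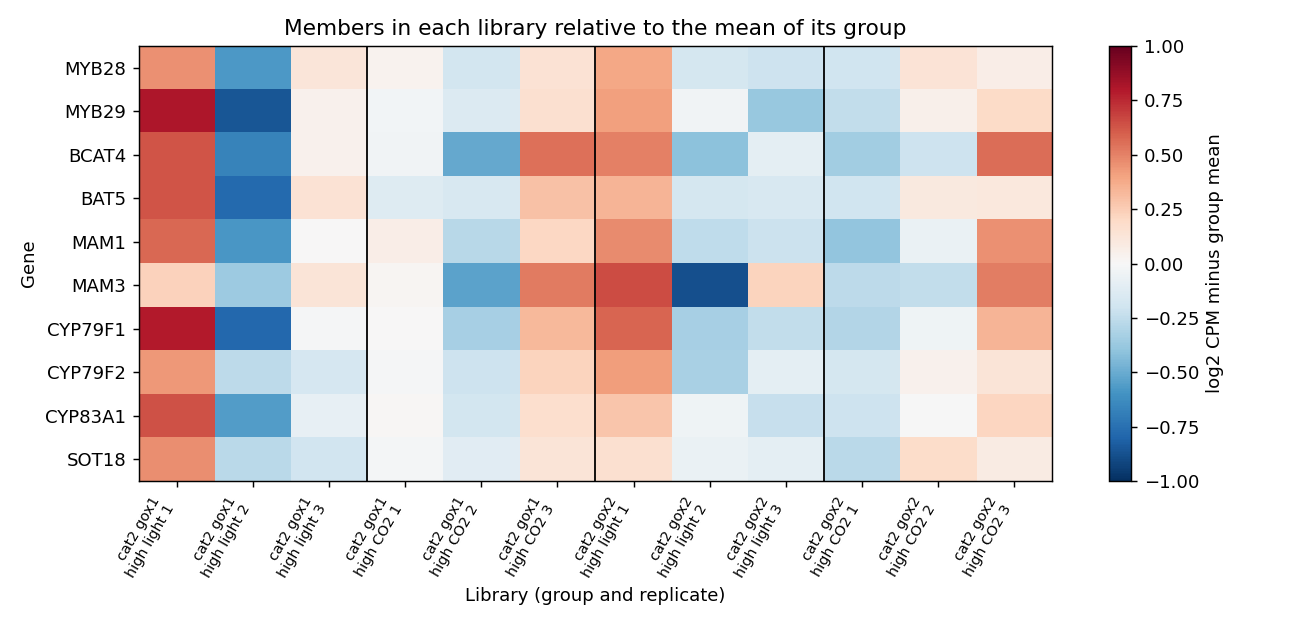
Deviation of each gene (rows) in each library (columns, grouped by line and condition and then replicate) from the mean of its group, as log2 CPM, with red above and blue below the mean. In 9 of 12 columns at least 9 genes share a colour, as in cat2 gox1 after high light, where replicate 1 has a median of 0.60 and replicate 2 of -0.58, and 3 columns are mixed.

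Summed over the 10 genes, the transcripts made up 1245 ± 512 CPM in cat2 gox1 after high light and 2550 ± 473 CPM under high CO2, and 1025 ± 275 CPM in cat2 gox2 after high light and 2987 ± 656 CPM under high CO2 (SD, n = 3 each). The lowest sum under high CO2 (2086 CPM) was above the highest after high light (1793 CPM). BCAT4, MAM1, CYP79F1 and CYP83A1 made up 78.5 to 84.0% of the sum in every library, so the sum mainly follows these 4.

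Divided by exon length, levels can be set side by side between genes, as far as the annotated lengths hold. The exon length was 3272 bases for CYP79F1 and 2018 for CYP79F2, with coding sequences of 1617 and 1614 bases. The longer exon length lowers the value per length of CYP79F1 and its ratio to CYP79F2. Lengths come from RefSeq TAIR10.1, while the counts were made on TAIR10. As RPKM, which is CPM divided by the exon length in kilobases, the means over the 12 libraries were 279.5 for CYP83A1, 217 for MAM1, 169 for BCAT4, 109 for CYP79F1, 77.4 for SOT18, 46.6 for MYB28, 43.0 for MAM3, 23.4 for BAT5, 20.4 for MYB29 and 3.73 for CYP79F2. CYP83A1 was thus above 98.6% of the tested genes with a known length and CYP79F2 above 33.0%. CYP79F1 exceeded CYP79F2 by 17.1 to 36.9 times per length, and MAM1 exceeded MAM3 by 3.92 to 8.15 times, or up to 6.55 times without cat2 gox2 high light replicate 2. The ranges of both ratios overlapped between the conditions in each line: the ratio of CYP79F1 to CYP79F2 was 17.1 to 31.2 in cat2 gox1 after high light and 24.8 to 29.1 under high CO2, and 25.6 to 31.5 in cat2 gox2 after high light and 29.5 to 36.9 under high CO2.

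**Figure D4:**
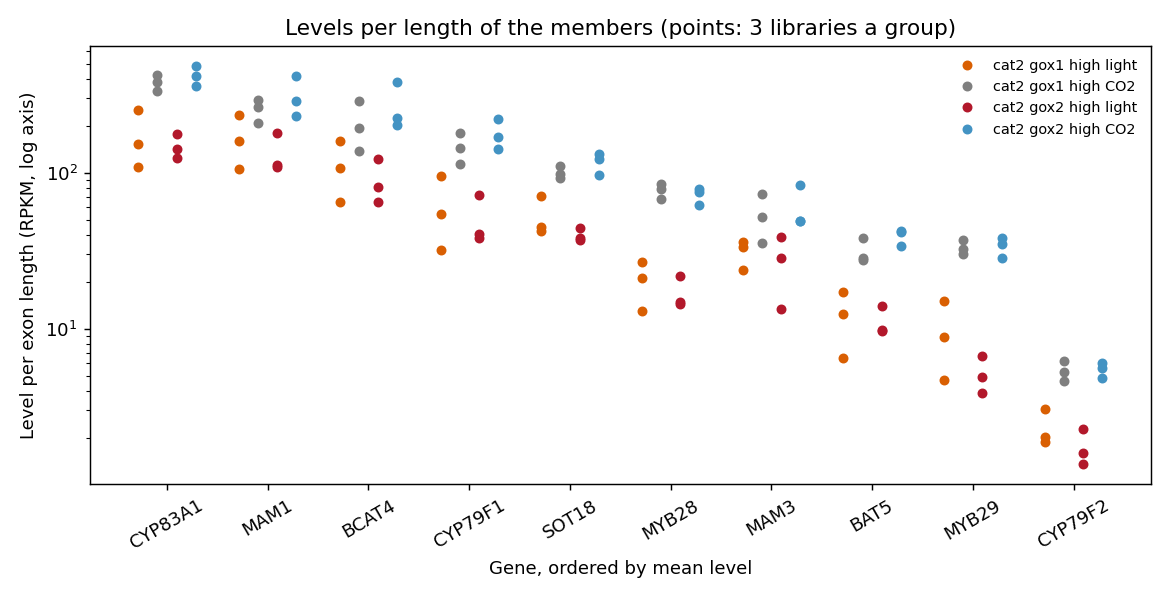
Level per exon length of each gene in RPKM (vertical log axis), ordered by the mean over 12 libraries, with 1 point per library and a colour per group. CYP83A1 is the highest and CYP79F2 the lowest gene in the plot, and high light points lie to the left of and mostly below the high CO2 points of the same line.

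The ratio of MAM1 to MYB28 stood apart between the conditions in both lines. Those of MYB28 to MYB29 and of SOT18 to SOT17 did so only in cat2 gox2. The ratio of CYP83A1 to CYP79F1 overlapped in both lines. It was 2.62 to 3.43 after high light and 2.34 to 2.91 under high CO2 in cat2 gox1. In cat2 gox2 it was 2.46 to 3.72 after high light and 2.19 to 2.53 under high CO2. MAM1 stood at 7.54 to 8.85 times MYB28 per length in cat2 gox1 after high light and 3.08 to 3.43 times under high CO2, and at 7.37 to 8.23 times in cat2 gox2 after high light and 3.67 to 5.54 times under high CO2. These ranges do not overlap, as the regulator was lower by more than the enzyme. The ratio of MYB28 to MYB29 was 2.99 to 3.72 in cat2 gox2 after high light and 1.96 to 2.26 under high CO2, whereas in cat2 gox1 it was 1.78 to 2.77 after high light and 2.24 to 2.42 under high CO2. SOT18 stood at 1.30 to 1.44 times SOT17, the other aliphatic sulfotransferase, in cat2 gox2 after high light and at 1.58 to 1.83 times under high CO2, but at 1.66 to 1.86 and 1.57 to 1.76 times in cat2 gox1. No test was made of these ratios, which describe unequal changes of the genes set against each other.

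Between the lines, no member passed the test in any comparison. Under high CO2, 0 of 10 genes differed between cat2 gox2 and cat2 gox1, beside 0.0158% of all genes, with 0 at an unadjusted p under 0.05 in edgeR and 0 called by DESeq2. The log2 differences ran from -0.09 (MYB28) to 0.38 (BCAT4, 95% interval -0.47 to 1.22) with a median of 0.20, and the groups overlapped for all 10, where 8.1% of all genes had none. The numbers were taken as pairing the libraries in this comparison, although only number 3 stood apart in the check of pairing. Fitting the repeat as a block also gave 0 of 10, with a median of 0.23. The intervals given here come from the fit without the block. Differences within these intervals remain possible with 3 libraries per group. For SOT18, the most even member, the interval ran from -0.20 to 0.65, and for MYB28 from -0.62 to 0.44.

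After high light 0 of 10 genes were called, beside 6.55% of all genes, with 1 at an unadjusted p under 0.05 in edgeR and 0 called by DESeq2. All 10 had log2 differences below 0, with a median of -0.29 beside -0.01 over all genes, and the libraries of the lines overlapped for all 10, where 28% of all genes had no overlap. MYB29 differed most, with 8.93 ± 2.47 CPM in cat2 gox2 and 16.4 ± 8.96 CPM in cat2 gox1 (log2 -0.88, SE 0.342, 95% interval -1.63 to -0.13, edgeR adjusted p = 0.168). SOT18 had 55.0 ± 5.53 CPM in cat2 gox2 and 72.7 ± 21.6 CPM in cat2 gox1 (log2 -0.40, SE 0.195, edgeR adjusted p = 0.282). The shared direction depended mainly on 1 library, high light replicate 1 of cat2 gox1, and the size of the differences moved with others. Without high light replicate 1 of cat2 gox1, 5 of 10 genes were below 0 and the median was 0.001, and without its replicate 2 the median was -0.54 and MYB29 passed (-1.21, edgeR adjusted p = 0.0252). Without replicate 1 of cat2 gox2 the median was -0.59, and without its replicate 2 it was -0.17, with 9 of 10 genes below 0.

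The difference between the light responses, cat2 gox2 minus cat2 gox1, asks whether the fall was larger in cat2 gox2. It passed for 0 of 10 genes, beside 1.04% of all genes, with 1 at an unadjusted p under 0.05 in edgeR and 0 called by DESeq2. The 10 values ran from -0.91 (MYB29, SE 0.472, edgeR adjusted p = 0.581) to -0.16 (MYB28, SE 0.343, edgeR adjusted p = 0.979), with a median of -0.50 beside -0.01 over all genes. SOT18, at -0.63 (SE 0.275), had the lowest adjusted p of the 10 (edgeR adjusted p = 0.475). All 10 were below 0, and since the genes deviate together within libraries they do not count as 10 separate observations. Without high light replicate 1 of cat2 gox1, 8 of 10 remained below 0 with a median of -0.23, and without its replicate 2 the median was -0.75. Without high light replicate 2 of cat2 gox2 the median was -0.37. The 3 further genes that passed in cat2 gox2 are therefore no evidence that the lines responded differently.

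The other genes of the pathway were read from lists of known members. Of 20 tested genes of elongation, core synthesis and side-chain modification outside the 10, 14 fell and 2 rose in cat2 gox1, and 15 fell and 2 rose in cat2 gox2, with medians of -0.86 and -1.19. Beside them, 26.5% of all genes were called lower in cat2 gox1 and 29.2% in cat2 gox2. All 5 remaining elongation genes fell in both lines, but in cat2 gox1 the call of IPMI SSU2 ended without high CO2 replicate 1 or high light replicate 2 or 3 of that line (edgeR adjusted p up to 0.0774), with library totals alone (edgeR adjusted p = 0.0538) and without the number 3 libraries (edgeR adjusted p = 0.0760). Their largest fall was in IPMI SSU3, a small subunit of the isomerase of the cycle, which had 49.7 CPM after high light against 152 CPM under high CO2 in cat2 gox1 and 50.1 against 196 CPM in cat2 gox2 (log2 -1.61, SE 0.382, edgeR adjusted p = 0.00450, and log2 -1.97, SE 0.386, edgeR adjusted p = 0.00119).

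Among 7 other core genes, 5 fell and 1 rose in cat2 gox1, and 6 fell and 1 rose in cat2 gox2. The cat2 gox1 falls numbered 3 without high light replicate 2 or 3 of that line, without the number 3 libraries, with library totals alone and with only the 6 libraries of the line, since GSTF11 (log2 -0.91, edgeR adjusted p = 0.0393) and GSTU20 (log2 -0.72, edgeR adjusted p = 0.0254), glutathione transferases of the route, no longer passed. Of the 12 fits that left out a library, GSTF11 lost its cat2 gox1 call in 7 and GSTU20 in 3. In cat2 gox2 the call of GSTU20 ended without high light replicate 3 of that line (-0.71, edgeR adjusted p = 0.0505). It also ended there without the number 3 libraries (-0.51, edgeR adjusted p = 0.120). UGT74C1, a glucosyltransferase of the aliphatic route, fell most, by 1.52 (SE 0.213) in cat2 gox1 and 1.58 (SE 0.214) in cat2 gox2. The gene that rose was GGP1, a peptidase of the glutathione conjugate that serves all kinds of glucosinolates, at 631 CPM after high light against 300.2 CPM under high CO2 in cat2 gox1 and 629 against 348 CPM in cat2 gox2 (log2 1.07, SE 0.173, and log2 0.85, SE 0.173). Both sulfate donor genes fell in both lines. APK2, a kinase of the sulfate donor that SOT18 uses, changed by -0.62 (edgeR adjusted p = 0.0324) in cat2 gox1 and by -0.97 (edgeR adjusted p = 0.00290) in cat2 gox2. The cat2 gox1 call of APK2 ended without high CO2 replicate 1 or 3 or high light replicate 2 or 3 of that line (log2 -0.67, -0.48, -0.49 and -0.52), and that of APK1 without high CO2 replicate 3 or high light replicate 2 or 3 (log2 -0.37, -0.40 and -0.55). Both calls also ended with library totals alone, with only the 6 libraries of that line, without the number 3 libraries, and with median-of-ratios scaling (APK1 -0.48, edgeR adjusted p = 0.0514, and APK2 -0.58, edgeR adjusted p = 0.0516).

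**Figure D5:**
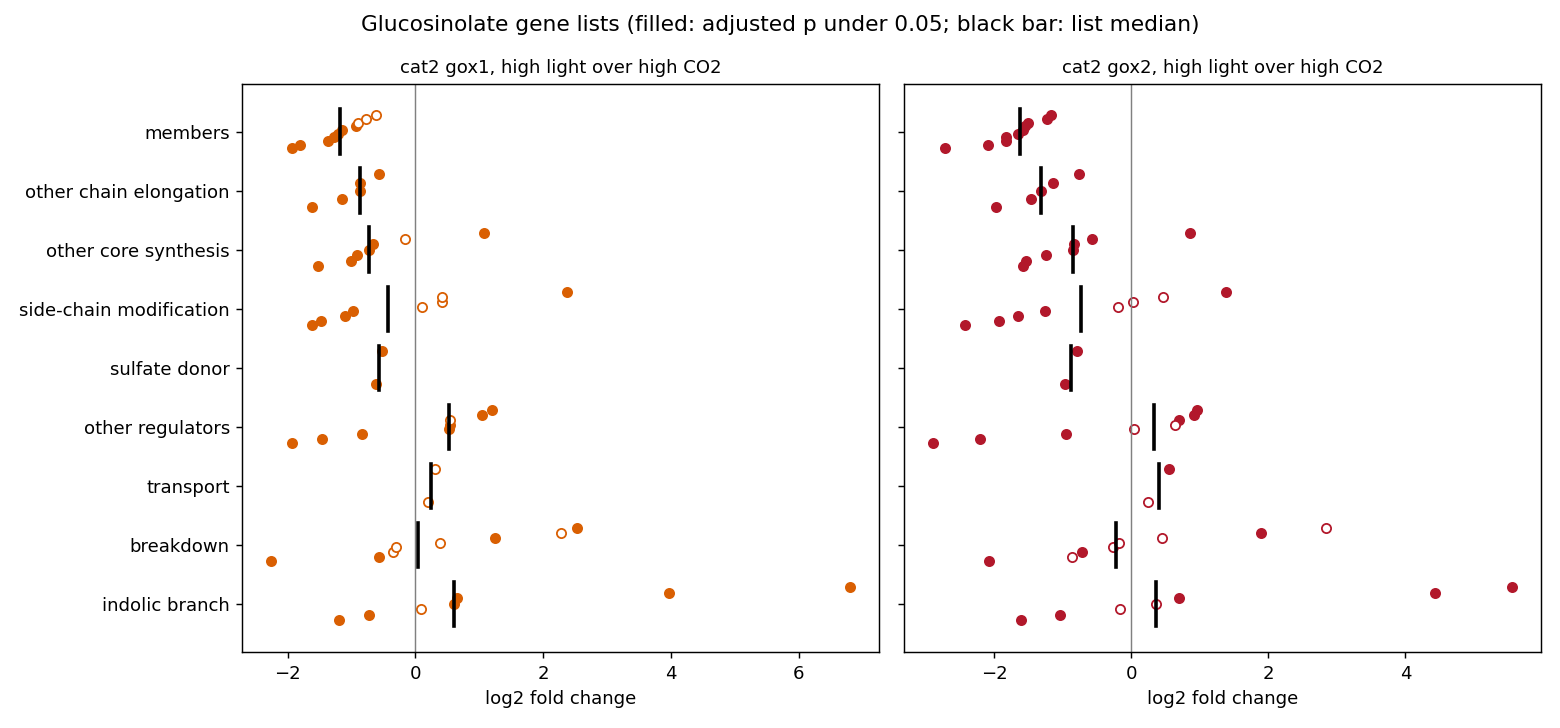
Log2 fold change of each tested gene of the members and related lists (horizontal axis, high light over high CO2, 1 panel per line), filled where the adjusted p was under 0.05, with the median of each list as a black bar. The members and the other elongation and core genes lie mostly left of 0, with medians of -1.18 and -1.62 for the members, while regulators, breakdown and indolic genes lie on both sides.

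Of 8 tested side-chain genes, 4 fell and 1 rose in each line, and AOP3 and BZO1 did not pass the low-count filter. AOP2, which encodes a dioxygenase of alkenyl products that is known to be non-functional in Columbia, fell by 1.62 (SE 0.335) in cat2 gox1 and 2.42 (SE 0.347) in cat2 gox2. FMOGS-OX4, an S-oxygenating flavin monooxygenase, rose by 2.37 (SE 0.413, edgeR adjusted p = 0.000691) in cat2 gox1 and 1.39 (SE 0.403, edgeR adjusted p = 0.0121) in cat2 gox2. In cat2 gox2 this call ended without high CO2 replicate 2 (1.15, edgeR adjusted p = 0.0505).

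Other regulators of the pathway moved both ways. Of 8, 3 fell and 4 rose in cat2 gox1, and 3 fell and 3 rose in cat2 gox2. Beside them, 26.5% of all genes were called lower in cat2 gox1 and 29.2% in cat2 gox2. Among all genes called in either direction, 49.2% and 48.7% were higher in those lines. MYB76, the neighbour and close relative of MYB29, had 70, 10 and 29 counts in the 3 high light libraries of cat2 gox1 against 80, 71 and 140 under high CO2, and 21, 5 and 10 against 56, 89 and 107 in cat2 gox2. Its log2 fold change was -1.46 (SE 0.556, edgeR adjusted p = 0.0457) and -2.89 (SE 0.630, edgeR adjusted p = 0.00235), and the cat2 gox1 call ended in 8 of the 12 fits that left out a library, with edgeR adjusted p up to 0.128, and likewise with both other scalings (median-of-ratios -1.42, edgeR adjusted p = 0.0517), with only the 6 libraries of the line (-1.46) and without the number 3 libraries (edgeR adjusted p = 0.239). MYC4, a bHLH partner of the MYB factors in jasmonate signalling, kept its call in all fits and had 12.4 CPM after high light against 47.6 CPM under high CO2 in cat2 gox1 and 9.96 against 46.0 CPM in cat2 gox2 (log2 -1.94, SE 0.120, and -2.21, SE 0.122).

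MYC2 and MYC3, the other partners of this kind, had fold changes above 0 in both lines. MYC2 rose in cat2 gox1 (132 CPM after high light against 57.3 CPM under high CO2, log2 1.20, SE 0.291, edgeR adjusted p = 0.00511) and had a log2 of 0.64 in cat2 gox2 (edgeR adjusted p = 0.0787), where it passed without high CO2 replicate 3 of cat2 gox2 (1.04, edgeR adjusted p = 0.00449) or of cat2 gox1 (0.67, edgeR adjusted p = 0.0359). MYC3 rose by 0.55 in cat2 gox1 (edgeR adjusted p = 0.0148) and 0.69 in cat2 gox2 (edgeR adjusted p = 0.00350). SLIM1, a factor of the sulfur limitation response that represses glucosinolate genes, rose by 1.04 (SE 0.170) and 0.96 (SE 0.170). SDI2, a repressor induced when sulfur is short, rose by 0.52 (edgeR adjusted p = 0.0376) in cat2 gox1 and 0.91 (edgeR adjusted p = 0.00174) in cat2 gox2, and its relative SDI1 had values of 0.55 and 0.03 that did not pass. The cat2 gox1 calls of MYC3 and SDI2 each ended without high CO2 replicate 1, high CO2 replicate 2 or high light replicate 2 of that line, and that of SDI2 also without high light replicate 3 of either line.

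The 2 transporter genes had log2 fold changes above 0 in both lines (0.19 and 0.31 in cat2 gox1, 0.24 and 0.56 in cat2 gox2). Breakdown genes showed no common direction. Of the glucosinolate transporters, GTR2 had 87.0 CPM after high light against 59.1 CPM under high CO2 in cat2 gox2 (log2 0.56, edgeR adjusted p = 0.0220), a call lost without high CO2 replicate 1 or 2 or high light replicate 1 of that line. GTR1 passed in neither line in the main fit. Over 21 settings it passed in 2 in cat2 gox1 and in 4 in cat2 gox2. DESeq2 was among them in both lines (0.24, DESeq2 adjusted p = 0.0459, and 0.30, DESeq2 adjusted p = 0.0107). Of 8 breakdown genes 2 fell and 2 rose in cat2 gox1, and 2 fell and 1 rose in cat2 gox2. The falls were near the share of all genes called lower, 26.5% in cat2 gox1 and 29.2% in cat2 gox2. ESP, a specifier protein gene of breakdown, passed narrowly in cat2 gox1 (log2 -0.57, edgeR adjusted p = 0.0391) and was lost in 9 of the 12 fits that left out a library, which left 1 fall, and with median-of-ratios scaling, library totals alone, only the 6 libraries of the line or no number 3 libraries. In cat2 gox2 a further gene rose in 5 of those 12 fits, which was BGLU30 in 4 of them and NSP1 in 1. ESM1, which modifies the outcome of breakdown, fell by 2.26 (SE 0.403) and 2.07 (SE 0.400), and the nitrile specifier gene NSP5 rose by 2.53 (edgeR adjusted p = 4.95e-05) and 1.89 (edgeR adjusted p = 0.000235) in cat2 gox1 and cat2 gox2.

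The indolic branch, which builds glucosinolates from tryptophan, split as well. Of its 7 genes 2 fell and 4 rose in cat2 gox1, and 2 fell and 3 rose in cat2 gox2. The falls were again near the shares of all genes called lower, 26.5% in cat2 gox1 and 29.2% in cat2 gox2. Among all genes called in either direction, 49.2% were higher in cat2 gox1 and 48.7% in cat2 gox2. MYB34, an indolic regulator, fell by 1.20 (SE 0.155) and 1.61 (SE 0.158). MYB122, another indolic regulator, had 159 counts over the 3 high light libraries against 1 under high CO2 in cat2 gox1, a ratio of 153 with a 95% interval of 27.1 to 6086, and 168 against 3 in cat2 gox2, a ratio of 51.4 with an interval of 17.3 to 252. These exact binomial intervals cover counting error only.

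Outside the 10, 5 genes followed their library-to-library pattern most closely. Likeness was Pearson's r between a gene's deviations from its group means and the mean deviation of the 10 members over the 12 libraries, among 13653 genes that averaged 5 CPM or more. The order was FMO GS-OX3 (r 0.982, rho 0.993), AT1G20070 (r 0.979, rho 0.972), FMO GS-OX1 (r 0.975, rho 0.937), the aspartate kinase AK3 (AT3G02020, r 0.960, rho 0.944) and AK-HSDH I (AT1G31230, r 0.956, rho 0.916), an aspartate kinase joined to a homoserine dehydrogenase. Without the libraries farthest from the median, cat2 gox1 high light replicates 1 and 2, r was 0.971, 0.957, 0.949, 0.950 and 0.902. FMO GS-OX1 and FMO GS-OX3 are side-chain genes of the same pathway, and of its other genes AOP2 ranked 6, IPMI SSU2 13, IPMI SSU3 14 and IPMDH1 17. Others of the pathway stood far down, as BCAT3 at 1292, FMOGS-OX5 at 5110, GGP1 at 5857, UGT74B1 at 6190 and GSL-OH at 6829 (r -0.01). Across conditions these genes did not all follow: AT1G20070 did not pass in cat2 gox1 (log2 -0.44) or in cat2 gox2 (log2 -0.33), AK3 changed by -1.03 (edgeR adjusted p = 0.0543) and -1.67 (edgeR adjusted p = 0.00536), and AK-HSDH I fell by 1.22 and 1.52. These correlations are given as a description and share libraries and depth.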

How the data were processed

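The values deposited by the authors are raw read counts of genes, made, per the submitters' processing notes, with Trim Galore 0.3.3, TopHat2 2.1.0 on TAIR10 and featureCounts of Subread 1.4.6. Libraries were made with a stranded mRNA kit, per the labels, but how the counter treated strand and multi-mapping reads was not given in the sources used here. Of 33604 table entries 2 name no gene. The analysis used edgeR 4.0.16 in R 4.3.3 (filterByExpr with minimum count 10 and minimum total 15, TMM scaling, 1 mean per group over all 12 libraries, two-sided quasi-likelihood tests), with Benjamini-Hochberg adjustment across 18967 genes and a threshold of 0.05, for 5 comparisons. The biological coefficient of variation was 0.211. SE is the size of the log2 change divided by the square root of F and is approximate. Total counts were 19571516 to 25314811, and 1 count was worth at most 0.0526 CPM. Deviations use log2 CPM with a prior count of 2. Exon lengths, neighbours and sequences come from RefSeq TAIR10.1, and RPKM were computed from them. Replicates differed by more than counting noise, so none was merged, and p-values measure the spread between repeats of the set-up, each a pool of plants. Numbers were taken as paired only for the lines under high CO2, where same-numbered deviations correlated at 0.433 to 0.765. There number 1 of a line also correlated with number 2 of the other, at 0.396 and 0.497. Number 3 correlated with the other numbers at -0.636 to -0.506. The check thus set number 3 apart but did not tell numbers 1 and 2 from each other.

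The 10 members and the related lists were chosen with earlier results of these data known. The text names all members, the largest rise and fall past the threshold per related list, MYB76, MYC2, MYC3, MYC4, SLIM1, SDI1 and SDI2, the mutated genes, and the 5 genes most like the members. SOT17, AOP3, BZO1, IPMI SSU2, IPMDH1, GTR1, GSTF11, GSTU20, ESP, BGLU30, NSP1, BCAT3, FMOGS-OX5, UGT74B1, GSL-OH and the single phloem and guard cell markers were named after their values were seen. Alternatives were other scalings, no or a stricter filter (minimum count 50), DESeq2 1.42.0, a replicate block, fits of the compared groups only, all number 3 libraries left out and each library left out in turn. No protein sequences were used here.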

Additional observations from a re-analysis of the deposited data

How the results depend on the processing

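The lower level of all 10 genes after high light kept its direction in every alternative, in 200 of 200 values in each line, and no call turned its direction. Members called ranged from 6 to 9 in cat2 gox1 and from 9 to 10 in cat2 gox2 when single libraries were left out. With the replicate block 9 were called in cat2 gox1, since BCAT4 (-0.92, edgeR adjusted p = 0.0197) and MAM3 (-0.74, edgeR adjusted p = 0.0261) passed, and 10 in cat2 gox2; same-numbered deviations correlated at 0.0784 to 0.302 and -0.138 to 0.458 there and at -0.192 to 0.230 between the lines after high light. The block left 0 members in each comparison of the lines. Between the lines after high light, leaving out single libraries gave 0 to 1 members and 721 to 1624 genes in all (1243 with all libraries), and the block gave 1725. Under high CO2 it gave 2 to 4 genes in all, against 3 with all libraries, 1 without the number 3 libraries and 5 with DESeq2. For the difference of the light responses it gave 88 to 195 genes, against 197 with all libraries, 119 with library totals alone, 38 without the number 3 libraries and 533 with DESeq2. Scaling by library totals alone moved the median of all genes after high light between the lines to -0.13 (members -0.41) and the share of calls that were higher there to 64.2% (80.5% as reported), and the cause was not tested. With 3 libraries a group, differences between the lines within the intervals given remain possible.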
